A study of Mus musculus with 20 samples.

Results

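The genes described here encode the proteins of the cytosolic ribosome, the particle that translates messenger RNA. Members were chosen by name alone. A gene was a member when it was annotated as protein-coding and its symbol began with Rpl or Rps and a digit, or was Rplp0, Rplp1, Rplp2 or Rpsa, with the Rps6k kinases removed. This rule took 92 of the 46078 genes in the count tables, of which 21596 were protein-coding. The large subunit had 57 members and the small subunit 35. By symbol, 77 were standard subunit proteins, 7 were paralogues (such as Rps27l beside Rps27), 7 were annotated copies (such as Rps27rt and Rpl10-ps3) and 1, Rps19bp1, is not a ribosomal protein. Rps19bp1 encodes a nucleolar protein that binds RPS19, and it met the rule only through its symbol. Another 257 genes had a matching symbol but were not protein-coding and were left out. Fau and Rack1 encode subunit proteins under other names and were read beside the members.

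A ribosome holds nearly all of these proteins in equal number, and cells match their production through a shared signal. The mRNAs begin with a run of pyrimidines (a TOP motif) through which the mTORC1 pathway controls their translation. The family makes up much of the mRNA of growing cells and less of that of mature neurons, and macrophages, fibroblasts and other non-neuronal cells can differ from neurons in how much of it they hold.

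The RNA came from brain tissue of wild-type C57BL/6J male mice aged 18 months. All had a stroke made by occlusion of the distal middle cerebral artery followed by hypoxia, and tissue was taken 7 weeks later. From week 1 the mice received subcutaneous PBS (vehicle) or 4 g/kg of 2-hydroxypropyl-β-cyclodextrin (HPBCD), a ring of sugars able to hold lipids, 3 times per week for 6 weeks. Tissue bordering the infarct (peri-infarct) and the matching area of the opposite hemisphere (contralateral) gave 4 groups of 5 libraries, dissected by eye once the infarct had been taken out. No sham-operated or stroke-free mice were among these 20 libraries, so contralateral tissue, which had been through the same stroke and injections, was the only reference for region. The libraries were of bulk tissue, in which a shift in the mix of cells and a change of RNA within a cell cannot be told apart.

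Libraries held between 14445021 and 22171627 counts on genes, so that 3 counts, the limit a count of 0 allows, came to 0.135 to 0.208 CPM, the count scaled to a common library size. Contralateral replicate 4 of the HPBCD group was the smallest library and had 8.03% of its reads ambiguous between genes, against 3.94% to 4.16% in the others. Contralateral replicate 1 of the vehicle group had a summed level of 8 striatal markers of 3396 CPM, against 199 to 289 CPM in the other contralateral libraries. Neuronal markers, summed over 12 genes, ranged from 11597 to 13757 CPM in vehicle contralateral tissue, 7728 to 10525 in vehicle peri-infarct, 13588 to 14670 in HPBCD contralateral and 3913 to 7760 in HPBCD peri-infarct tissue. Neuronal, astrocyte and oligodendrocyte markers were thus present in every library, and neuronal markers were lowest in the libraries labelled HPBCD peri-infarct.

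Sequences are shown for Rps27l, a member called in the treatment comparison of peri-infarct tissue, and its parent Rps27. They show that reads of Rps27l can be told from those of Rps27. Rps27 lies on chromosome 3 (90212522 to 90213651, minus strand, GRCm38) and its paralogue Rps27l on chromosome 9 (66946086 to 66949516, plus strand). The first 90 coding bases of each are given from the start codon, and capitals mark the 24 bases at which Rps27l differs from Rps27.
Rps27: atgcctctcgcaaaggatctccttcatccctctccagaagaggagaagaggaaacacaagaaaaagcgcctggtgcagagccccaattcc
Rps27l: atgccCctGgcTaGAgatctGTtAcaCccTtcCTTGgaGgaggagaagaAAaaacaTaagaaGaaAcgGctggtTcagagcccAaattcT
Over the whole coding sequence of 252 bases, Rps27l differed from Rps27 at 60 bases, an identity of 76.19%. Rps27rt, a retroposed copy also on chromosome 9 (114982366 to 114982739, minus strand), had the same 252 coding bases as Rps27. Rpl10-ps3 (chromosome 9, 50344201 to 50344968) and Rpl10 (chromosome X, 74270812 to 74273135) had 642 identical coding bases, and Rps12-ps3 and Rps12 had 396.

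Such copies matter for counting, because a read that fits several places is set aside and not counted on a gene. Each member's main transcript was scanned in windows of 75 bases, the read length, for windows found letter for letter in another gene. Among the 83 members with a mean of at least 100 counts, the median share was 47.4%. Rps12-ps3 shared 100%, Rps27 98.5%, Rpl10-ps3 96.0%, Rpl10 91.9% and Rps27rt 90.3%. Rps27l shared 12%, Rplp0 27.4%, Rps9 27.8% and Rps19bp1 none. Between 16.6% and 24.3% of the reads in a library had been set aside as not unique.

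A run of pyrimidines at the start was more frequent among the members than among all genes, although most member windows had none. In 78 RefSeq promoter windows of 66 member genes, 36 (46.15%) had a C followed by at least 5 pyrimidines within 10 bases of the start, against 19.18% of all 32851 windows. The windows ran from 250 bases before to 50 after each start (build GRCm38.p6), and in them the letters CCGGAAG, read on both strands, stood in 34.62% against 8.858% of all windows, AANATGGC in 21.79% against 6.052%, GGGCGG in 60.26% against 35.66% and TATAAA in 8.974% against 13.62%. A match of letters is a description and not a measured site. The stretch from 50 bases before to 15 bases after the start is given for members described below, Rps9, Rps12 and Rps2 with the run in capitals, Rplp0 and Rps19bp1 without one near the annotated start, and the paralogue Rpl22l1. Rps9 lies at chr7:3703991-3704055 (plus strand), Rps12 at chr10:23787195-23787259 (minus strand), Rps2 at chr17:24720013-24720077 (plus strand), Rplp0 at chr5:115559417-115559481 (plus strand), Rps19bp1 at chr15:80264292-80264356 (minus strand) and Rpl22l1 at chr3:28805458-28805522 (plus strand).
Rps9: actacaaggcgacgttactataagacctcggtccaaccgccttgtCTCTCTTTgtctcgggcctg
Rps12: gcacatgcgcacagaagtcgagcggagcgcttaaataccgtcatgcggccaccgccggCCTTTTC
Rps2: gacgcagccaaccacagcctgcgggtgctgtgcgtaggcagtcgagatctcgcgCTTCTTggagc
Rplp0: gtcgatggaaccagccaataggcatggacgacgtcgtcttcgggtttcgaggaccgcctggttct
Rps19bp1: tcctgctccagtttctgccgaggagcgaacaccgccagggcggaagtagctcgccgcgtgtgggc
Rpl22l1: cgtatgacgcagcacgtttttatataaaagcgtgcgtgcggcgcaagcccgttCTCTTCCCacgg

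The members were spread over 20 chromosomes, with 4 on the X, and differed widely in level. Per kilobase of main transcript, the median of the 83 members with a mean of at least 100 counts was 157 CPM per kb. The large subunit had a median of 154 and the small subunit 161, with quartiles of 83.8 to 226 and 89.9 to 203, so the subunits lay in the same range. The highest were Rplp1 (644), an acidic protein of the ribosomal stalk, Rps15 (611), Rps21 (491), Rpl8 (422) and Rpl13a (403). The lowest of the members with enough counts to be tested were the copies Rps12-ps3 (1.68) and Rpl36a-ps1 (4.83), the paralogues Rpl22l1 (8.82) and Rps27l (14.4), and Rpl35 (10.9). Rps27l thus stood far below its parent, with 4.42 to 13.8 CPM per library against 31.3 to 68.7 for Rps27.

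The 6 members with the lowest levels were not tested in the comparisons of pairs of groups. Rpl10l, a testis paralogue of Rpl10, had 0 counts in all 20 libraries. Rpl36-ps4 had at most 3 counts, Rpl9-ps1 at most 4, Rpl39l, a testis paralogue of Rpl39, at most 8, and Rpl3l, the muscle paralogue of Rpl3, at most 16. Rpl24, a standard large subunit protein, had 2 to 20 counts per library, and 484 bases of its exons overlapped Gm28037 on the same strand, where reads are set aside as ambiguous. These values say little of the level of Rpl24 itself. Rps4l was annotated as a pseudogene and was no member.

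The family moved together from library to library more than from group to group. Members took 1.12% ± 0.118 (SD, n = 5) of all gene counts in vehicle contralateral tissue, 1.12% ± 0.0458 in vehicle peri-infarct, 1.07% ± 0.171 in HPBCD contralateral and 1.33% ± 0.203 in HPBCD peri-infarct tissue, and the range over the 20 libraries was 0.894% to 1.57%. On a log2 scale, the median of the 83 members relative to the vehicle contralateral mean was -0.01, 0.12, 0.18, -0.30 and 0.01 in vehicle contralateral replicates 1 to 5, and -0.03, -0.05, 0.01, -0.10 and -0.22 in vehicle peri-infarct tissue. It was 0.28, -0.34, -0.15, -0.14 and 0.12 in HPBCD contralateral and -0.03, -0.25, 0.09, 0.33 and 0.18 in HPBCD peri-infarct tissue. All 4 groups overlapped. The lowest libraries were vehicle contralateral 4, HPBCD contralateral 2 and HPBCD peri-infarct 2, and the highest were HPBCD peri-infarct 4 and HPBCD contralateral 1.

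**Figure D1:**
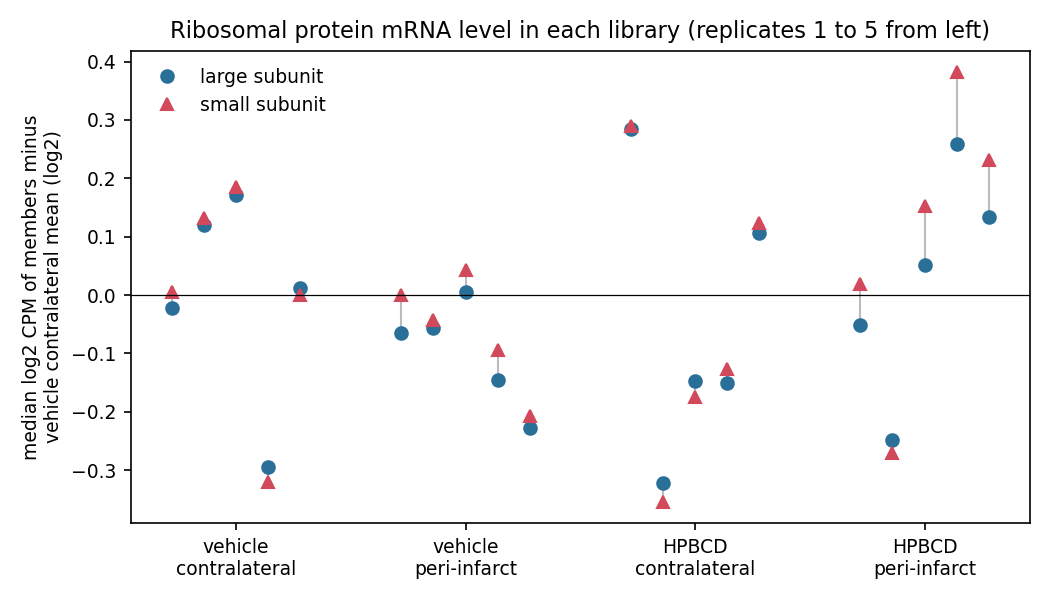
Median log2 level of large subunit (circles) and small subunit (triangles) members in each of the 20 libraries, relative to the vehicle contralateral mean, with replicates 1 to 5 from left in each group. Both subunits of a library lay close together, while libraries of 1 group were spread, the small subunit from -0.35 to 0.29 in HPBCD contralateral and from -0.27 to 0.38 in HPBCD peri-infarct tissue.

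Within a group, the log2 level of a member had a median SD of 0.22, and after subtraction of the library's own family median it was 0.083. The difference between subunits was small in every library. The median of the small subunit minus that of the large was 0.028, 0.012, 0.013, -0.025 and -0.013 in vehicle contralateral tissue and 0.066, 0.014, 0.038, 0.051 and 0.020 in vehicle peri-infarct tissue, above 0 in 5 of 5 libraries. It was 0.0047, -0.032, -0.027, 0.025 and 0.017 in HPBCD contralateral tissue and 0.070, -0.024, 0.101, 0.124 and 0.098 in HPBCD peri-infarct tissue, above 0 in 4 of 5. Group means were 0.0029 ± 0.021, 0.038 ± 0.022, -0.0024 ± 0.026 and 0.074 ± 0.058 (SD, n = 5). The peri-infarct mean was the higher in either treatment, and the groups overlapped. Within animals, whose regions are paired, the difference was higher in peri-infarct than in contralateral tissue in 5 of 5 vehicle mice (by 0.0019 to 0.076) and in 5 of 5 HPBCD mice (by 0.0083 to 0.128). This is a description, with no test.

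The first comparison asked how the peri-infarct region differed from contralateral tissue in vehicle-treated mice. Ribosomal protein mRNA differed little there. Of 86 members tested with edgeR's quasi-likelihood test at an adjusted p under 0.05, 0 were called higher and 1 lower, where 10.5% of the 15801 genes tested were called higher and 9.7% lower. At an unadjusted p under 0.05, 1 was higher and 6 were lower, against 17.9% and 16.5% of all genes, and DESeq2 called 0 higher and 3 lower, against 12.7% and 12.6% of all genes. The median log2 fold change of members was -0.08, against 0.01 over all genes, and 69 of 86 were below 0. This sign was not kept in every setting, since the median was 0.0087 when libraries were scaled by their totals, which also moved the median of all genes to 0.10, and 0.014 when a trend with gene length and GC content was taken out in the fit with the replicate block. Of 4 equal classes of other genes by exon length, the shortest, in which 69 members fall, had a median of -0.11. With the replicate block, which pairs the regions of an animal, 2 members were called lower, where 9.10% of all genes were. Without vehicle contralateral replicate 4, the library with the lowest family level in that group, 12 were called lower, where 11.2% of all genes were, and without vehicle peri-infarct replicate 2, 2 were, where 10.4% of all genes were. The median of the same 86 members was -0.14 without vehicle contralateral 4 and -0.03 without vehicle contralateral 2, vehicle contralateral 3 or vehicle peri-infarct 5. Without vehicle contralateral replicate 1, which had the high striatal markers, the count was 1 as with all libraries.

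The member called lower was Rps19bp1, the gene that encodes no ribosomal protein. Its level was 17.3, 18.9, 16.2, 15.7 and 16.8 CPM in vehicle contralateral tissue and 11.6, 13.8, 11.98, 13.5 and 13.2 in vehicle peri-infarct tissue. Every peri-infarct library was lower than every contralateral one. The log2 fold change was -0.39 (SE 0.09, edgeR adjusted p = 0.00987), and the replicate block gave -0.39 (adjusted p = 0.0238). The call was lost, at -0.23 and edgeR adjusted p = 0.116, in the fit that took out the trend with length and GC content and had the replicate block as well. The members next to it did not pass the test. Rps21 (-0.30, SE 0.11, edgeR adjusted p = 0.0785), Rpl38 (-0.29), Rpl36al (-0.27), Rps14 (-0.27) and Rpl37 (-0.24) belong to either subunit, Rpl38 being known for its part in translating Hox mRNAs in the embryo.

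At the upper end, also without passing the test, were Rps27l (0.26), Rplp0 (0.21, SE 0.10, edgeR adjusted p = 0.17), Rpl10 (0.17, SE 0.08, adjusted p = 0.138), Rpl10a (0.16), Rps2 (0.15) and Rps9 (0.14). These 6 genes, with Rps19bp1, Rps21, Rpl38, Rpl36al and Rps14 on the lower side, were the members over 3 median absolute deviations from the family median. Rpl10, a protein placed late in the assembly of the large subunit, had 78.9, 83.6, 85.3, 67.0 and 83.4 CPM in vehicle contralateral and 86.3, 85.9, 98.1, 86.4 and 87.4 CPM in vehicle peri-infarct tissue. The groups of Rpl10 did not overlap, which was so for 2 of the 86 members tested, Rps19bp1 being the other, against 13.6% of all genes tested.

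In mice labelled HPBCD the same regional comparison gave a different picture. Of 86 members tested, 14 were called higher and 1 lower with edgeR, 16.3% and 1.16% of the members, where 30.3% of the 16047 genes tested were called higher and 24.3% lower. Both shares of members were below those of all genes, a description that was not tested. At an unadjusted p under 0.05, 17 were higher and 1 was lower, against 32.5% and 27.1% of all genes. The median log2 fold change was 0.13 (quartiles -0.01 to 0.30), against 0.03 over all genes, and 63 members were above 0. This median moved with single libraries, to 0.05 without HPBCD peri-infarct 4, 0.06 without HPBCD contralateral 2, 0.08 without HPBCD peri-infarct 5 and 0.20 and 0.23 without HPBCD peri-infarct 2 and HPBCD contralateral 1. The shortest length class of other genes had a median of -0.03. In the fit with the replicate block that takes out the trend with length and GC content and does not put the library's overall level back, the median of members was -0.10 and that of all genes -0.20.

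The small subunit had a median of 0.26 and the large subunit 0.10 in this comparison. Of the 14 called higher, 8 were of the large subunit and 6 of the small. Among standard proteins alone the medians were 0.22 and 0.10. The count leaned on single libraries. It was 29 without HPBCD contralateral replicate 1 and 26 without HPBCD peri-infarct replicate 2, 8 without HPBCD contralateral 2, HPBCD peri-infarct 4 or HPBCD peri-infarct 5, and 9 without HPBCD contralateral 3, HPBCD contralateral 4 or HPBCD peri-infarct 3. Over all genes the share called higher stayed between 27.3% and 30.6% in these fits.

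**Figure D2:**
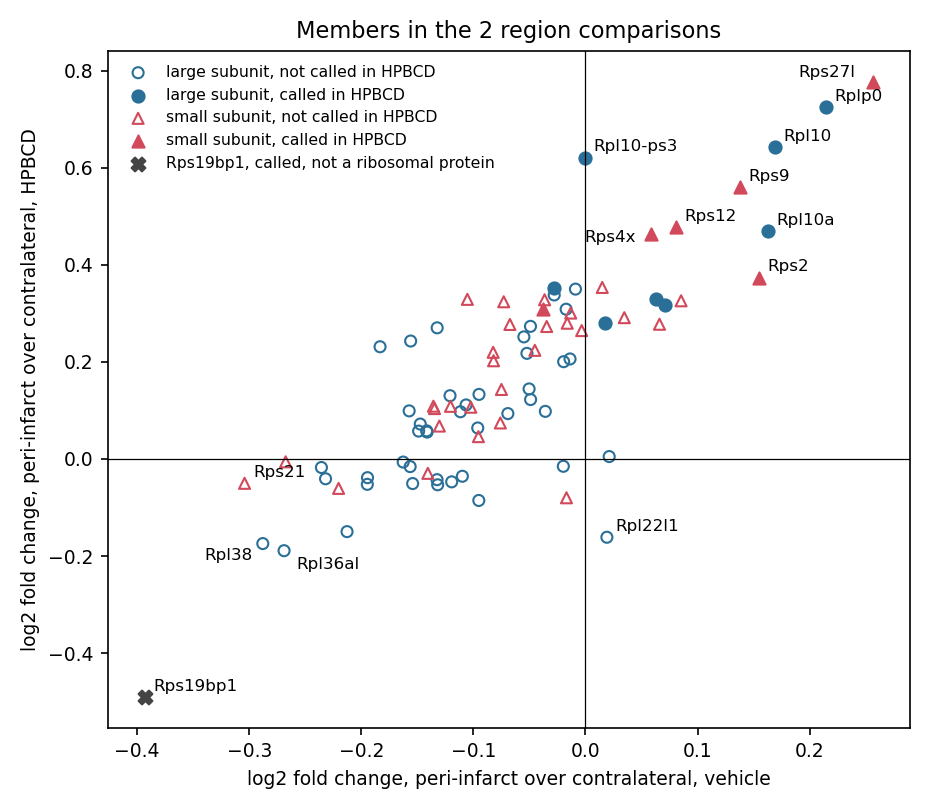
Log2 fold change of peri-infarct over contralateral tissue for each tested member, in vehicle (horizontal) and HPBCD (vertical) mice, by subunit, with filled symbols for members called in HPBCD mice. Rplp0, Rpl10 and Rps27l lie at upper right with 0.72, 0.64 and 0.78 in HPBCD mice, and Rps19bp1 lies farthest toward lower left.

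Rplp0 had the smallest adjusted p of the family. It encodes the protein that anchors the stalk of the large subunit, where elongation factors dock. Its level was 213, 161, 180, 188 and 188 CPM in HPBCD contralateral tissue and 303, 226, 296, 357 and 304 CPM in HPBCD peri-infarct tissue. Every peri-infarct library was above every contralateral one. The log2 fold change was 0.72 (SE 0.12, edgeR adjusted p = 0.000188), a fold of 1.65. In vehicle mice Rplp0 ran from 174 to 231 CPM in contralateral and from 206 to 286 CPM in peri-infarct tissue, and those groups overlapped. The other proteins of the stalk, Rplp1 (0.34, SE 0.17, adjusted p = 0.113) and Rplp2 (0.35, SE 0.17, adjusted p = 0.0945), did not pass the test.

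Rpl10 had 90.9, 59.2, 62.2, 66.1 and 81.2 CPM in HPBCD contralateral and 107, 83.7, 111, 126 and 116 CPM in HPBCD peri-infarct tissue. HPBCD peri-infarct 2 lay below HPBCD contralateral 1, and the other libraries kept apart. The log2 fold change of Rpl10 was 0.64 (SE 0.13, edgeR adjusted p = 0.00132), and its copy Rpl10-ps3, with identical coding bases, had 0.62 (SE 0.18, adjusted p = 0.0108). Reads of these genes can be told apart only outside the shared windows, which were 91.9% of those of Rpl10 and 96.0% of those of Rpl10-ps3. The values of both are thus uncertain.

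Rps27l had the highest log2 fold change, 0.78 (SE 0.20, edgeR adjusted p = 0.00526), with 7.76, 4.69, 6.14, 5.23 and 7.94 CPM in HPBCD contralateral and 8.81, 7.07, 11.8, 13.8 and 11.3 CPM in HPBCD peri-infarct tissue. HPBCD peri-infarct 2 fell inside the contralateral range. Rps27l is a p53 target in other settings and can take the place of Rps27 in the small subunit. The parent Rps27 had a log2 fold change of 0.27 (SE 0.19, adjusted p = 0.235).

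Rps9, a protein of the small subunit, had 269, 177, 217, 216 and 254 CPM in HPBCD contralateral and 291, 228, 329, 408 and 358 CPM in HPBCD peri-infarct tissue, with a log2 difference of 0.56 (SE 0.15, edgeR adjusted p = 0.00769). Here too the value of HPBCD peri-infarct 2 lay within the contralateral range. Rps4x, the X-linked S4 gene, had 0.46 (SE 0.13, adjusted p = 0.00755) and Rpl10a 0.47 (SE 0.14, adjusted p = 0.0142). The remaining small subunit members called were Rps12 (0.48), Rps2 (0.37) and Rps6 (0.31), the last being the substrate that S6 kinase phosphorylates. The remaining large subunit members called were Rpl7 (0.35), Rpl22 (0.33), Rpl18 (0.32) and Rpl5 (0.28), which carries the 5S RNA into the ribosome. Their edgeR adjusted p ran from 0.0119 for Rps2 to 0.0489 for Rpl5. Rps12 shared 89.5% of its windows with other genes, Rpl10a 87.6% and Rps6 84.1%, so their values carry the same limit as Rpl10.

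Rps19bp1 was the member called lower, with 21.9, 15.8, 15.6, 14.6 and 18.6 CPM in HPBCD contralateral and 12.6, 10.9, 13.2, 10.8 and 12.02 CPM in HPBCD peri-infarct tissue. These groups did not overlap, and the log2 fold change was -0.49 (SE 0.12, edgeR adjusted p = 0.00401). Rplp0 and Rps19bp1 were the 2 members of 86 whose groups kept fully apart in this comparison, where the groups of 43.0% of all genes tested did. Below 0 without a call were Rpl36al (-0.19), Rpl38 (-0.17), Rpl22l1 (-0.16), Rpl9-ps6 (-0.15) and Rpl35 (-0.09). Rpl22l1 thus stood on the other side of 0 from its parent Rpl22, and the difference between them was not tested.

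The calls differed in how well they held. Rplp0, Rpl10, Rps27l, Rpl10-ps3 and Rps19bp1 kept the call in all 20 alternatives tried for this comparison, and Rps9, Rps4x and Rpl10a in 19. Rps2 kept it in 18, losing it with no filter on low counts and with the level not restored. Rpl22 kept it in 15, Rps12 in 12, Rps6 in 11, Rpl7 in 9, Rpl5 in 7 and Rpl18 in 6. Rpl5 lost the call with the replicate block, which pairs the regions of an animal. Both Rpl5 and Rpl18 lost it with DESeq2.

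A value relative to the family shows which members kept a level of their own. Rplp0, with its library's family median subtracted and vehicle contralateral tissue as 0, ranged on the log2 scale from -0.11 to 0.09 in vehicle contralateral, 0.11 to 0.49 in vehicle peri-infarct, -0.22 to 0.04 in HPBCD contralateral and 0.41 to 0.62 in HPBCD peri-infarct libraries. Rpl10 ranged from -0.08 to 0.06, 0.15 to 0.36, -0.19 to -0.08 and 0.33 to 0.46 in the same order. On this relative scale the regions of both genes kept apart in either treatment. Rps21, a small protein on the outer face of the small subunit, ranged from -0.08 to 0.13, -0.28 to -0.15, 0.00 to 0.21 and -0.27 to 0.02, lower relative to the family in vehicle peri-infarct tissue.

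**Figure D3:**
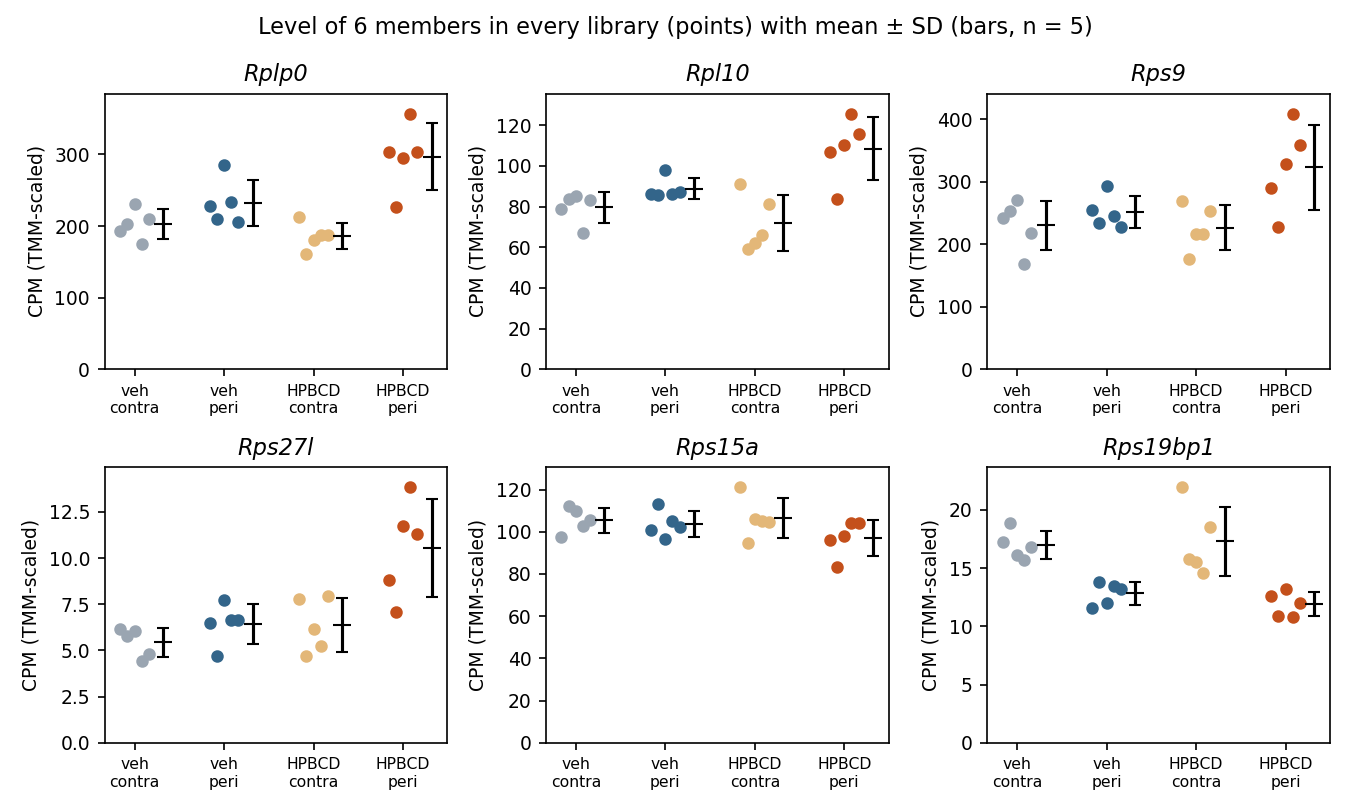
Level in CPM, on axes that start at 0, of Rplp0, Rpl10, Rps9, Rps27l, Rps15a and Rps19bp1 in every library (points) with mean ± SD (bars, n = 5). Rplp0 reached 226 to 357 CPM in HPBCD peri-infarct libraries against 161 to 213 in HPBCD contralateral ones, while Rps15a stayed between 83.4 and 121 CPM in all 20.

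Cell type markers also differed between regions. Of 8 astrocyte markers, 5 were called higher in HPBCD and 4 in vehicle mice. Of 7 endothelial markers, 1 was called higher and 2 lower in HPBCD mice, and 0 were called in vehicle mice. In vehicle mice 0 of 8 oligodendrocyte markers were called. In HPBCD mice all 12 microglia and macrophage markers were called higher (median log2 fold change 2.43), as were 8 of 8 oligodendrocyte markers and 8 of 8 fibroblast and meningeal markers, and 11 of 12 neuronal markers were called lower (median -0.95). The summed level of the fibroblast markers was 114 to 344 CPM in HPBCD contralateral and 619 to 1378 CPM in HPBCD peri-infarct libraries, and that of the oligodendrocyte markers 5643 to 7114 and 12550 to 18853 CPM. In vehicle mice all 12 microglia and macrophage markers were also called higher (1.68), with 424 to 571 CPM in contralateral and 869 to 2697 CPM in peri-infarct tissue, beside 5 of 12 neuronal markers lower (-0.28). All 8 striatal markers were called higher in HPBCD mice (median 2.81). In vehicle mice 0 were called with all libraries (0.35) and all 8 without vehicle contralateral replicate 1 (2.22), since the peri-infarct libraries, at 329.6 to 1901 CPM, were above every contralateral library but that one. Of the ependymal markers, 6 of 6 were called higher in HPBCD mice and 2 of the 4 tested in vehicle mice. Of the 9 lymphocyte markers, Cd3d was at 0 in every vehicle contralateral library, and Cd3d and Cd3g in every HPBCD contralateral library. The part of these cells in the ribosomal protein values was not tested.

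The next comparison asked what HPBCD changed in peri-infarct tissue. In the reported fit most members had a log2 fold change above 0, and few passed the test. Members moved together by library, so their number is no count of separate observations. The family median was -0.03, -0.25, 0.09, 0.33 and 0.18 in HPBCD replicates 1 to 5, against -0.22 to 0.01 in vehicle ones. HPBCD replicates 1 and 2 thus did not stand above the vehicle range. In libraries labelled HPBCD most neuronal markers were called lower than in those labelled vehicle. Most fibroblast markers and some ependymal and oligodendrocyte markers were called higher. The study reported higher Nefl, Syn1 and Bdnf and lower Gfap, Cd68 and Cx3cr1 with HPBCD in peri-infarct tissue. The neuronal genes it named thus ran the other way from most neuronal markers here. The labels were kept as given, and no deleted or added gene marks the treatment. Every direction of this comparison would turn if the labels of its groups were exchanged. The region comparisons and the interaction would change as well. An exchange was not tested. The median log2 fold change of the 86 members was 0.19 (quartiles 0.10 to 0.26), against 0.01 over all genes, and 80 of 86 were above 0. With the trend with length and GC content removed it was 0.12, with 75 members above 0. With the level not restored it was 0.024, with 47 above 0, and that of all genes was -0.08. With edgeR, 4 were called higher and 0 lower, 4.65% of members, where 12.4% of the 16224 genes tested were called higher and 9.0% lower. At an unadjusted p under 0.05, 22 were higher and 0 lower, against 21.2% and 18.0% of all genes, and DESeq2 called 13 higher and 0 lower, against 16.1% and 13.8% of all genes. The share of members that were higher was thus below that of all genes with the adjusted edgeR test, near it with DESeq2 and above it at the unadjusted threshold. The median of members was 0.11 without HPBCD peri-infarct replicate 4. The shortest length class of other genes had a median of 0.06. The large subunit had a median of 0.17 and the small 0.21, and without HPBCD peri-infarct 4 both had 0.11. Of the 4 called, 1 was of the large subunit and 3 of the small. Of the 76 standard proteins tested, 0 were called, with 16 of them at an unadjusted p under 0.05. The groups overlapped for every member tested, where those of 13.4% of all genes did not.

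**Figure D4:**
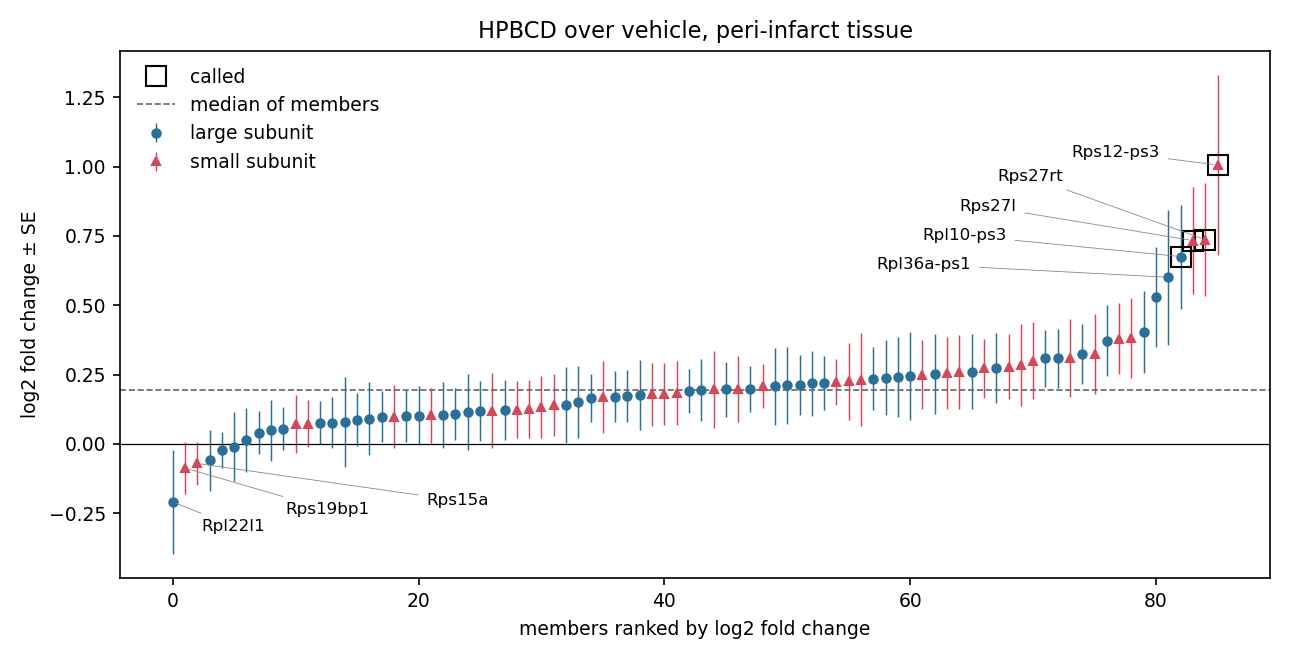
Log2 fold change ± SE of HPBCD over vehicle in peri-infarct tissue for the 86 tested members, ranked, with the median of members as a dashed line and squares around the 4 called. The quartiles of the members lie at 0.10 and 0.26, with Rps12-ps3, Rps27rt, Rps27l and Rpl10-ps3 at the top and Rpl22l1 at the bottom.

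Of the 4 members called, 3 were copies with the coding sequence of their parent. Rps27rt had 17.3, 16.8, 17.7, 18.7 and 18.2 CPM in vehicle and 20.9, 17.7, 31.3, 41.6 and 34.4 CPM in HPBCD peri-infarct tissue. The vehicle libraries lay close together, while the HPBCD libraries were spread, with replicate 2 inside the vehicle range and replicates 3, 4 and 5 far above it. The log2 fold change was 0.74 (SE 0.20, edgeR adjusted p = 0.0294).

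The parent Rps27 had 47.99, 48.8, 49.8, 40.8 and 38.0 CPM in vehicle and 46.9, 38.6, 55.5, 68.7 and 60.8 CPM in HPBCD peri-infarct tissue, with the same replicates 3, 4 and 5 highest. Its log2 fold change was 0.29 (SE 0.15, edgeR adjusted p = 0.17). In contralateral tissue Rps27rt also reached 33.4 CPM in an HPBCD library, against at most 22.5 CPM in vehicle ones.

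Rpl10-ps3 had 8.75, 8.99, 12.7, 11.6 and 12.1 CPM in vehicle and 15.2, 11.6, 16.9, 24.2 and 17.6 CPM in HPBCD peri-infarct tissue, with a log2 difference of 0.68 (SE 0.19, edgeR adjusted p = 0.0303). HPBCD replicate 2 lay within the vehicle range. The parent Rpl10 had 0.31 (SE 0.10, adjusted p = 0.0515).

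Rps12-ps3 had 0.716, 0.258, 0.844, 0.557 and 0.617 CPM in vehicle and 1.4203, 0.651, 1.04, 1.33 and 1.49 CPM in HPBCD peri-infarct tissue. The lowest of these levels is close to the limit that a count of 0 allows, and every window of this gene is found elsewhere, so its log2 difference of 1.01 (SE 0.33, edgeR adjusted p = 0.0476) is uncertain.

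Rps27l was the called member whose sequence sets it apart. It had 6.50, 4.70, 7.71, 6.64 and 6.64 CPM in vehicle and 8.81, 7.07, 11.8, 13.8 and 11.3 CPM in HPBCD peri-infarct tissue. HPBCD replicate 2 lay below vehicle replicate 3, and the other HPBCD libraries were above all vehicle ones. The log2 fold change was 0.73 (SE 0.19, edgeR adjusted p = 0.0257), a fold of 1.66. The call was kept in 15 of 20 alternatives and reached adjusted p = 0.0672 without HPBCD peri-infarct replicate 3.

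The family was also divided by the share of windows found elsewhere. Members that shared under 50% of their windows had a median log2 fold change of 0.20 and the others 0.18, while 1 and 3 members of these groups were called. The counts on non-coding copies of ribosomal protein genes, as a share of all gene counts, averaged 0.0373% in vehicle and 0.0540% in HPBCD peri-infarct tissue, with 0.0581%, 0.0708% and 0.0597% in HPBCD replicates 3, 4 and 5. Those are also the peri-infarct libraries in which Rps27rt was highest. Relative to the counts on members, non-coding copies averaged 3.32% in vehicle and 3.995% in HPBCD peri-infarct tissue. In contralateral tissue they averaged 3.44% in vehicle and 3.98% in HPBCD libraries, so the regions were alike in HPBCD mice. Whether reads moved from parents to copies was not tested.

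**Figure D5:**
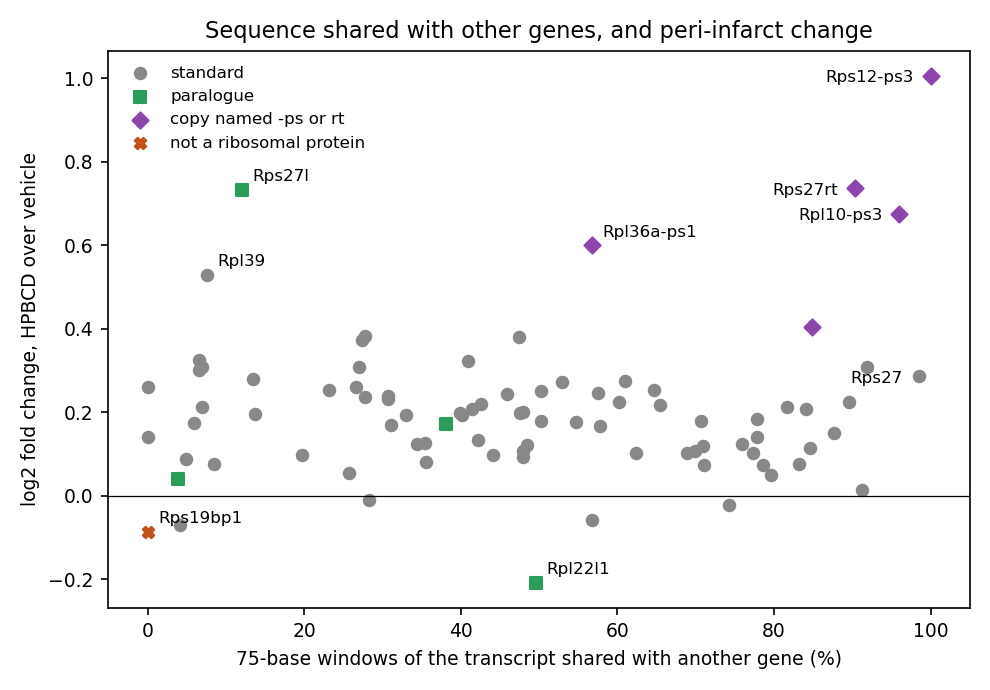
Log2 fold change of HPBCD over vehicle in peri-infarct tissue against the share of 75-base transcript windows found in another gene, by class of member. The copies Rps12-ps3, Rpl10-ps3 and Rps27rt lie at 90.3% to 100% and near the top, beside parents such as Rps27 and Rpl10 with shares of 98.5% and 91.9% and smaller changes, and Rps27l lies at 12%.

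Next in order, and without passing the test, were Rpl36a-ps1 (0.60, edgeR adjusted p = 0.0934), Rpl39 (0.53, SE 0.18, adjusted p = 0.0547), a short protein that lines the exit tunnel, Rpl9-ps6 (0.40), Rps9 (0.38, adjusted p = 0.0756), Rps28 (0.38) and Rplp0 (0.37, SE 0.13, adjusted p = 0.0579). Rpl39 had 18.1, 19.1, 22.1, 20.4 and 17.0 CPM in vehicle and 21.8, 18.7, 28.2, 39.9 and 28.7 CPM in HPBCD peri-infarct tissue. Replicate 2 was again the lowest HPBCD library and replicate 4 the highest.

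At the lower end were Rpl22l1 (-0.21, SE 0.19, edgeR adjusted p = 0.431), Rps19bp1 (-0.09), Rps15a (-0.07), Rpl29 (-0.06), Rpl15 (-0.02) and Rpl41 (-0.01). Rpl22l1 can replace Rpl22, which is known to repress it. It had 5.22, 4.80, 5.74, 5.38 and 4.27 CPM in vehicle and 3.80, 4.36, 6.09, 2.92 and 4.47 CPM in HPBCD peri-infarct tissue, and the groups overlapped. Rpl22 itself had 105, 109, 120, 111 and 107 CPM and 118, 115, 133, 169 and 138 CPM. HPBCD replicate 4 held the lowest Rpl22l1 and the highest Rpl22. HPBCD replicate 3 held the highest Rpl22l1, at 6.09 CPM, with Rpl22 at 133 CPM, above every vehicle library. A link between the levels of these genes was not tested. Rps15a had 96.6 to 113 CPM in vehicle and 83.4 to 104 CPM in HPBCD peri-infarct tissue.

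Other members with known roles were near the family median or under it. Rps6 had 0.21 (edgeR adjusted p = 0.0779), Rplp1 0.24, Rplp2 0.25, Rps27a, which is made as a fusion with ubiquitin, 0.18, and Rpsa, the laminin receptor precursor, 0.12. Among pairs, Rpl7l1, a paralogue that works in ribosome assembly, had 0.04 beside 0.32 for Rpl7, Rpl36al had 0.17 beside 0.11 for Rpl36a, and Rpl3 had 0.08. The differences within pairs were not tested.

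The number called in this comparison rested on single libraries. Without HPBCD peri-infarct replicate 2, the library with the lowest family level of its group, 33 members were called higher, and without HPBCD peri-infarct 3, 4 or 5 or without vehicle peri-infarct 1 or 2, 0 were. It was 15 without vehicle peri-infarct 3, 8 without HPBCD peri-infarct 1 and 2 without vehicle peri-infarct 5. The calls over all genes moved as well, with 16.2% called higher without HPBCD peri-infarct 2, 12.4% without HPBCD peri-infarct 1, 8.48% without vehicle peri-infarct 5, 17.0% without vehicle peri-infarct 3, and 3.63%, 6.22% and 8.13% without HPBCD peri-infarct 3, 4 and 5, and 5.88% and 5.70% without vehicle peri-infarct 1 and 2. With the replicate block, 8 were called higher, where 16.1% of all genes were.

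Markers also moved with the treatment in peri-infarct tissue. Of the neuronal markers 8 of 12 were called lower (median log2 fold change -0.56), of the fibroblast and meningeal markers 7 of 8 higher (2.40), of the ependymal markers 3 of 6 higher and of the oligodendrocyte markers 2 of 8 higher. Of the microglia and macrophage markers 0 of 12 were called (0.66), with summed levels of 869 to 2697 CPM in vehicle and 1449 to 3280 CPM in HPBCD libraries. Astrocyte markers summed to 5829 to 10411 and 8185 to 10981 CPM. Their part in the higher family level was not tested.

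In contralateral tissue HPBCD and vehicle libraries were compared as the background for the treatment. With edgeR, 0 of 86 members were called in either direction, and so were 0.0% of the 15469 genes tested higher and 0.0% lower. At an unadjusted p under 0.05, 1 member was higher and 0 lower, against 3.91% and 4.0% of all genes, and DESeq2 called 0, against 0.239% and 0.0905%. The median log2 fold change was -0.03 against -0.01 over all genes, the large subunit had -0.04 and the small -0.03, and 29 members were above 0. The median was not stable. It was -0.15 without HPBCD contralateral 1, -0.10 without vehicle contralateral 4, -0.07 without HPBCD contralateral 5, 0.03 without HPBCD contralateral 2 and 0.01 without vehicle contralateral 3. With limma voom it was -0.19, with 27 members at an unadjusted p under 0.05 and 0 called. The smallest edgeR adjusted p was 0.625, for Rpl9-ps6 (0.35, SE 0.16). The members farthest from the family median were all above it, and none passed the test. Rps12-ps3 had 0.77 (SE 0.36), with 0.241 to 0.779 CPM in vehicle and 0.571 to 1.52 CPM in HPBCD libraries, which is 4 to 30 counts. Rps27rt had 0.31, Rpl39 0.23, Rps27l 0.22 and Rpl36a-ps1 0.20, with edgeR adjusted p from 0.645 to 0.857. Rps12-ps3, Rps27rt and Rps27l, called higher in HPBCD peri-infarct tissue, thus had values above 0 here too. Leaving out HPBCD contralateral replicate 4, the smallest library with the most ambiguous reads, or vehicle contralateral replicate 1, with the high striatal markers, gave 0 calls as well.

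The difference of differences, the regional change in HPBCD mice minus that in vehicle mice, was tested as an interaction over all 20 libraries. Here 82 of 87 members were above 0, with a median of 0.22 against 0.01 over all genes, 0.20 in the large subunit and 0.25 in the small. With edgeR 0 members were called in either direction, where 5.03% of the 16758 genes tested were called higher and 4.38% lower. At an unadjusted p under 0.05, 7 were higher and 0 lower, against 15.5% and 13.4% of all genes, and DESeq2 called 1 higher and 0 lower, against 8.04% and 6.96% of all genes. Rplp0 came closest, with 0.50 (SE 0.16, edgeR adjusted p = 0.0534), followed by Rpl10 with 0.46 (SE 0.16, adjusted p = 0.0746) and Rpl10-ps3 with 0.61 (SE 0.24, adjusted p = 0.104). Rps4x had 0.40 (adjusted p = 0.125), Rps9 0.41 (adjusted p = 0.19) and Rps27l 0.51 (adjusted p = 0.209).

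The greater number of calls in HPBCD than in vehicle mice is not shown by this test to be a difference between treatments for any member named here. Replicate 2 of HPBCD peri-infarct tissue again weighed on the count, with 8 called higher without it, as did HPBCD contralateral 1 and vehicle contralateral 4, with 3 each, and vehicle peri-infarct 3, with 2. Over all genes 10.2%, 3.37%, 7.06% and 9.38% were called higher in these fits. The shortest length class of other genes had a median of 0.05. The replicate block gave 2 called higher, where 6.02% of all genes were. With limma voom and quality weights 40 of 87 members were called higher, where 11.6% of all genes were, and the median of members was 0.39. The count of 0 is thus that of the reported edgeR fit, with TMM factors, no replicate block and all libraries. Other edgeR fits over all libraries, such as that with the replicate block, called some members. The cause of the difference between fits and tools was not tested.

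Genes that work beside the ribosome were read next. Rack1, which encodes a subunit protein outside the naming rule and sits on the small subunit near the mRNA exit, was called higher in the HPBCD region comparison (0.39, SE 0.14, edgeR adjusted p = 0.0293). Fau, whose product is made as a fusion with a protein like ubiquitin, was not called in that comparison.

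Of 20 translation factors and other mRNAs with a TOP motif, 2 were called higher and 1 lower between regions in vehicle mice, 4 higher and 3 lower in HPBCD mice, and 1 and 1 for HPBCD over vehicle in peri-infarct tissue. Over all genes these shares were 10.5% and 9.7%, 30.3% and 24.3%, and 12.4% and 9.0%. In the HPBCD region comparison Eef1a1, the elongation factor that carries transfer RNA to the ribosome, had 0.76 (edgeR adjusted p = 5.15e-05), Pabpc1, which binds the poly(A) tail, 0.84 (adjusted p = 2.15e-05) and Tpt1 0.68 (adjusted p = 0.0012). Eef1a2, the form used by neurons and muscle, had -0.93 (adjusted p = 0.000195). In vehicle mice Eef1a1 had 0.33 (edgeR adjusted p = 0.0321) and Eef1a2 -0.32 (adjusted p = 0.0186), so these genes moved in opposite directions in both region comparisons, in each of which some neuronal markers were called lower. Eef1a2 had 961 to 1204 CPM in HPBCD contralateral and 349 to 658 CPM in HPBCD peri-infarct tissue, without overlap. In peri-infarct tissue, HPBCD over vehicle, Tpt1 had 0.45 (edgeR adjusted p = 0.0422) and Eef1a2 -0.67 (adjusted p = 0.0189).

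Of 24 genes for ribosome assembly and its control, such as processing factors and RNA polymerase I subunits, 0 were called higher and 4 lower between regions in vehicle mice, and 1 and 10 in HPBCD mice, with medians of -0.14 and -0.19. Of all genes 10.5% were called higher and 9.7% lower in vehicle mice, and 30.3% and 24.3% in HPBCD mice. Wdr12 (-0.62, edgeR adjusted p = 5.02e-05), Rrp1 (-0.53, adjusted p = 0.00101) and Rrn3 (-0.40, adjusted p = 0.00139) were lower, and Npm1, the abundant nucleolar chaperone, was higher (0.27). For HPBCD over vehicle in peri-infarct tissue Rrp1 was the only one called (-0.33, edgeR adjusted p = 0.0398), with a median of -0.15 over the list. The median of the assembly list lay below 0 where that of the ribosomal proteins lay above it.

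Of 13 genes of the mTORC1 and S6 kinase pathway, 3 were called higher in vehicle mice between regions, and 2 higher and 2 lower in HPBCD mice, where 10.5% of all genes were called higher in vehicle mice and 30.3% higher and 24.3% lower in HPBCD mice. Myc, a transcription factor that drives ribosome production, had 0.91 in vehicle and 1.37 (edgeR adjusted p = 3.6e-05) in HPBCD mice. It was at 2.23 to 4.12 CPM in HPBCD contralateral and 7.64 to 10.7 CPM in HPBCD peri-infarct libraries. Rptor, the subunit that defines mTORC1, had -0.43 between regions in HPBCD mice and -0.33 for HPBCD over vehicle in peri-infarct tissue (edgeR adjusted p = 0.0307). It was also the pathway gene called in the interaction (-0.40, adjusted p = 0.031).

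Outside the family, the genes whose level followed the median member most closely over the 20 libraries were Eef1b2 (Pearson r = 0.941), Fau (0.935), Mt3 (0.927), Dpm3 (0.913) and Naca (0.913), of 16671 genes compared. Members themselves had a median r of 0.881 with that profile, and 63 of 83 were over 0.8. The lowest were Rps19bp1 (0.147), Rpl7l1 (0.285) and Rpl15 (0.393). The points share libraries and their scaling, so these values describe the 20 libraries and carry no test.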

How the data were processed

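The deposited files were raw counts of reads per Ensembl gene, which the authors made, per the labels and the study's methods, from paired 75-base reads of TruSeq stranded mRNA libraries (RNA integrity number above 8) with bcl2fastq 2.19, Trimmomatic 0.32, STAR 2.5.2b on GRCm38 and HTSeq, and tested with DESeq2. HTSeq's strand setting and the annotation release are not given in the sources used here, and reads that fit several genes were not counted on any. Between 14445021 and 22171627 counts per library fell on genes, and rows for unassigned reads stayed out of library sizes. Symbols, biotypes, positions and transcript sequences came from the GENCODE M21 annotation of GRCm38, which matched 45229 of the 46078 genes, and promoters from RefSeq (GRCm38.p6).

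Counts were fitted in R 4.3.3 with edgeR 4.0.16 (filterByExpr, TMM factors, glmQLFit and glmQLFTest), over all genes that passed the filter, with Benjamini-Hochberg adjustment and a threshold of 0.05. The region and treatment comparisons used the 10 libraries concerned and the interaction all 20. CPM values were scaled by TMM factors and, as log2, had a prior count of 2. Levels between genes were compared per kilobase of main transcript. The procedure was tested on simulated data. Floors cover counting error only.

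Named members were, by rule, the 6 highest and 6 lowest by log2 fold change, paralogues with their parents, the stalk proteins, Rpsa, Rps6 and Rps27a, the 5 highest and lowest levels per kilobase, members over 3 median absolute deviations from the family median (Rpl18 and Rpl5 were named after their values were seen). Members and lists were chosen with earlier results of these data known.

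The names of the deposited files give both regions of an animal a common identifier, so replicate numbers pair the regions. Deviations from group means correlated within animals with a mean r of 0.0876 over 10 pairs, with 4 over 0.1. Between treatments the shared numbers pair nothing. Libraries of a group came from separate animals. Alternatives were DESeq2 1.42.0, limma 3.58.1 (voom with quality weights), other scalings, no filter, all groups in 1 fit, a replicate block, removal of a loess trend (span 0.3) with gene length and GC content, standard proteins only and leaving out each library. The trend removed without restoring the overall level, and the restriction to standard proteins, were chosen after seeing the data.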

Additional observations from a re-analysis of the deposited data

Results flagged for a closer look

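Of 88 checks for a library far from the others of its group, over the members described, 1 was positive, where chance gives about 1 in 20. Rpl10 stood at 98.1 CPM in vehicle peri-infarct replicate 3, against 85.9 to 87.4 CPM in the other 4 libraries of the group. The gap to the nearest of them was 0.878 of the group's whole range, above the critical value of 0.71. The same library also had the highest Rplp0 of its group, at 286 CPM against 206 to 233.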

How the results depend on the processing

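The number of members called depended on the setting except between treatments in contralateral tissue, while the family median kept its sign in the treatment comparison of peri-infarct tissue (0.024 to 0.26) and in the interaction (0.046 to 0.39) under all alternatives. Scaling by library totals moved the median log2 fold change of all genes to 0.10 and 0.19 in the vehicle and HPBCD region comparisons, 0.08 and -0.03 in the treatment comparisons of peri-infarct and contralateral tissue, and 0.10 in the interaction, and members moved with it. Removing the length and GC trend without restoring the level moved it to -0.08, -0.20, -0.08, 0.00 and -0.10. The causes were not tested. Depth limits Rpl24 and the other members with at most 20 counts.

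Between regions in vehicle mice, members called higher numbered 3 with library totals (14.9% of all genes were) and 3 with the trend removed in the paired fit (10.4%). Members called lower numbered 3 with DESeq2 (12.6% of all genes), 2 with the replicate block (9.10%), 0 with the trend removed in the paired fit (8.43%), 9 with the level not restored (17.1%), 11 with limma voom (14.9%) and 0 among standard proteins, and 1 to 12 when leaving out each library (5.26% to 11.2%).

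Between regions in HPBCD mice, members called higher numbered 28 with the trend removed in the paired fit (32.6% of all genes were), 6 with the level not restored (23.0%), 7 with no filter (17.0%), 36 with library totals (38.7%), 36 with limma voom (31.3%), and 8 to 29 when leaving out each library (27.3% to 30.6%; 26 members without HPBCD peri-infarct replicate 2). Members called lower numbered 17 with the level not restored (41.7% of all genes) and 0 among standard proteins. The median of members was -0.10 with the level not restored, where Rpl22 had -0.0020 and Rpl18 -0.0061, against positive values otherwise. The large minus small subunit difference of medians, -0.17 as reported, was -0.11 with the trend removed, -0.11 with the level not restored, -0.12 with limma voom, -0.12 among standard proteins, and -0.18 to -0.12 when leaving out each library (-0.13 without HPBCD contralateral replicate 2). The replicate block gave 16 higher and 1 lower here (30.4% and 24.8% of all genes).

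For HPBCD over vehicle in peri-infarct tissue, members called higher numbered 13 with DESeq2 (16.1% of all genes were), 10 with all 4 groups in 1 fit (15.8%), 8 with the replicate block (16.1%), 2 with the level not restored (10.5%), 16 with library totals (15.6%), 28 with limma voom (19.9%), 0 among standard proteins, and 0 to 33 when leaving out each library (3.63% to 17.0%; 15 members without vehicle peri-infarct replicate 3). The subunit difference, -0.035 as reported, was -0.080 with the trend removed, -0.078 with the level not restored, and -0.065 to -0.00074 when leaving out each library, the latter without HPBCD peri-infarct 4. In contralateral tissue 0 were called in every alternative.

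In the interaction, members called higher numbered 1 with DESeq2 (8.04% of all genes were), 2 with the replicate block (6.02%), 3 with the trend removed in the paired fit (6.65%), 3 with library totals (7.56%), 40 with limma voom (11.6%), and 0 to 8 when leaving out each library (1.84% to 10.2%). The replicate numbers shared between treatments mark different animals, so in the treatment comparisons the replicate block is only a shared number.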
